A study of Mus musculus with 2 samples.

Results

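The heat shock chaperone genes described here are Hspa1a, Hspa1b, Hspa8, Hspa5, Hsp90aa1, Hsp90ab1, Hspb1, Dnajb1, Hsph1 and Hspe1. They were taken by name, and all 10 were found among the 20210 genes of the deposited count table of both libraries. The study sorted viable, tdTomato-positive cells out of dissected arcuate nucleus with median eminence, at the base of the hypothalamus, from CD-1 mice on postnatal day 10. The tested library, called dHet here, came from Ins2-Cre;tdTomato+/- mice that were also Irx3/5+/-, that is heterozygous for both Irx3 and Irx5, which encode Iroquois homeobox transcription factors. The control library came from Ins2-Cre;tdTomato+/- mice without the Irx3/5 alleles. Both groups therefore carry the Ins2-Cre driver and the reporter, and a cell was sampled only if Ins2-Cre had switched the reporter on in it or in a cell it descends from. Each library was 1 pool of 5 mice per the labels, so differences between animals cannot be seen and no test over animals was possible. The labels used here do not say which part of Irx3 and Irx5 the alleles remove.

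Chaperones bind unfolded or partly folded protein and keep it from aggregating. Hsp70 proteins (Hspa1a, Hspa1b, Hspa8 in the cytosol, Hspa5 in the endoplasmic reticulum) do so in cycles of ATP hydrolysis that J-domain proteins such as Dnajb1 start and nucleotide exchange factors such as Hsph1 reset. Hsp90 proteins (Hsp90aa1, Hsp90ab1) take over later folding steps of kinases and steroid receptors, the small heat shock protein Hspb1 holds unfolded protein without ATP, and Hspe1 is the lid of the mitochondrial chaperonin. Hspa8 and Hsp90ab1 are made constitutively in most cells, whereas Hspa1a, Hspa1b, Hspb1 and Dnajb1 are classic targets of heat shock factor 1, which binds inverted repeats of nGAAn in their promoters. Hspa5 is instead a target of the unfolded protein response of the endoplasmic reticulum.

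Promoter sequences of the genes whose levels differed most between the libraries are shown with the letters of the heat shock element in capitals, because they set the near-identical pair Hspa1a and Hspa1b beside Hspb1. The sequences are RefSeq's on GRCm38.p6, and each runs 5′ to 3′ on the gene's strand over the 250 bases before the transcript start. Hspa1a (chr17:34972157-34972406, minus strand) and Hspa1b (chr17:34959239-34959488, minus strand) are neighbouring genes, and Hspb1 lies at chr5:135887669-135887918 on the plus strand. The letters searched were GAANNTTC and TTCNNGAA, each of which is its own reverse complement, so both strands were covered at once.
Hspa1a: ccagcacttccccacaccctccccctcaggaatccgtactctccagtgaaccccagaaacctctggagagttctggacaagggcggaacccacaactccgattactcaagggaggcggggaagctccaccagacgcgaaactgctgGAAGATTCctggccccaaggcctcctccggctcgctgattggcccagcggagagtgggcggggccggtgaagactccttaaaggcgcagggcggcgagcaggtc
Hspa1b: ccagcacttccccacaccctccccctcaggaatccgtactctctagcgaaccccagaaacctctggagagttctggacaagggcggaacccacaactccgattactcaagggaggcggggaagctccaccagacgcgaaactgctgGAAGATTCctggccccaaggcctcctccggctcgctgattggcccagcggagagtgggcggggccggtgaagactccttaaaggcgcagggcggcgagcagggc
Hspb1: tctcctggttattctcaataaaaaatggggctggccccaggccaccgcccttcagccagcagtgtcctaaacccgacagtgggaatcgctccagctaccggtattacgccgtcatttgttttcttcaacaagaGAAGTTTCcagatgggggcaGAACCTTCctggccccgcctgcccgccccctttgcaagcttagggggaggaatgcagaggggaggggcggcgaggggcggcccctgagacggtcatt

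The Hspa1a and Hspa1b windows were identical at 247 of 250 bases. Counted from 1 at the 5′ end of the printed run, with the Hspa1a base first, they differed by C44T, T47C and T249G. The element began 104 bases before the start in both genes, and 117 and 97 bases before it in Hspb1. It was found in 12.8% of the 32851 promoters of the same length. For Hspe1, Hsph1 and Hspa5 a stretch of 30 bases around the match is shown, because annotated exons overlap their windows.
Hspe1: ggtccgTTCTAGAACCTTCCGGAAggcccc
Hsph1: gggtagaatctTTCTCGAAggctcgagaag
Hspa5: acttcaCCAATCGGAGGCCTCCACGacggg

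In Hspe1 (chr1:55088053-55088082, plus strand) 3 elements overlapped, beginning 89, 84 and 79 bases before the start. In Hsph1 (chr5:149636351-149636380, minus strand) the element began 33 bases before the first listed start and 54 bases before the second. The capitals in Hspa5 (chr2:34772019-34772048, plus strand) mark a match to the endoplasmic reticulum stress element, CCAAT and CCACG with 9 bases of any kind between them, which began 65 bases before the start and was found in 0.113% of promoters, with both strands searched. The heat shock element letters were not in the windows of Hspa5 or Dnajb1. Hspa8, Hsp90aa1 and Hsp90ab1 are named only. A match describes letters and is not a measurement of binding.

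Counting was done on the 3′ ends of transcripts, with 1 unique molecular identifier (UMI) per captured molecule, so a count does not grow with transcript length. The deposited table held 3939 dHet cells with 71827597 UMIs and 3479 control cells with 63100794 UMIs. After removal of cells under 500 genes and of called doublets, 3880 dHet and 3418 control cells were kept, with a median of 17314 and 16706 UMIs per cell, and 4 barcodes occurred in both libraries. Levels are given as CPM, the UMIs of a gene per 1000000 UMIs of the class. Irx3 had 42 UMIs in the dHet library and 91 in the control library, a CPM ratio of 0.405 (0.274 to 0.590), and Irx5 had 107 and 179 UMIs, a ratio of 0.524 (0.409 to 0.670). The cells formed 34 clusters, made without the chaperone genes, and were given class names ending in "-like" from marker genes. Of 11 astrocyte markers 11, and of 13 tanycyte markers 13, were higher in their class than in the rest. The neuron-like class held 2914 dHet and 2257 control cells, the astrocyte-like class 421 and 413, and the tanycyte-like class 235 and 278. Tanycytes are the radial glia-like cells that line the floor of the third ventricle. By class, astrocyte-like cells had 21 dHet and 61 control UMIs of Irx3, and 67 and 106 of Irx5. Neuron-like cells had 2 and 8 of Irx3, and 3 and 13 of Irx5. Tanycyte-like cells had 0 and 1 of Irx3, and 4 and 4 of Irx5, too few to show a difference there.

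The chaperone genes together made up 0.824% of all UMIs in the dHet library and 0.825% in the control library. Hsp90ab1, Hspa8 and Hsp90aa1 led. They held 30.9%, 30.1% and 22.5% of the chaperone UMIs in the dHet library and 31.9%, 28.7% and 22.1% in the control library. By contrast, Hspa1a, Hspa1b and Hspb1 held 0.248%, 0.187% and 0.104% in the dHet library and 0.798%, 0.661% and 0.221% in the control library. Dnajb1 held 0.513% in the dHet library and 0.636% in the control library, where only Hspb1 had fewer UMIs. The sum of the group was thus set by genes that hardly differed between libraries, and Hspa1a, Hspa1b and Hspb1 added little to it in either.

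Hspa8, the constitutive cytosolic Hsp70, stood at 2480 CPM in the dHet library and 2369 CPM in the control library. Its levels in the 5 named neuron types were close to each other, between 2318 and 2756 CPM in dHet cells and between 2260 and 2609 CPM in control cells. The lowest level was in astrocyte-like cells, with 1005 CPM (95% Poisson interval 969 to 1043) in dHet and 876 CPM (839 to 913) in control cells. All intervals here cover counting error only. In the last 500 bases of the Hspa8 transcript 79.25% of 101-base words also occur in transcripts of 7 other annotated genes, the processed copy Gm15459 first. That copy is not among the counted genes, so no reads were counted to it. The other genes were not looked up, and whether any Hspa8 reads were discarded was not examined.

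Hsp90ab1, the constitutive cytosolic Hsp90, had a similar profile to Hspa8, with 2961 CPM in dHet and 3131 CPM in control Agrp/Npy-like neurons (which carry the feeding peptides of those names), and 734 and 728 CPM in astrocyte-like cells. Over 11 classes in 2 libraries, taken as 22 points, the Pearson r of log2(CPM + 5) between Hspa8 and Hsp90ab1 was 0.96. Hsp90aa1, the stress-responsive Hsp90, had a different pattern. It peaked in ependymal-like cells, the ciliated cells of the ventricle wall, at 5038 CPM (4854 to 5228) in dHet and 4299 CPM (4162 to 4440) in control cells. Its neuron-like level was 1964 CPM in dHet and 1942 CPM in control cells, and its astrocyte-like level was 343 and 287 CPM. Hsph1, the Hsp110 exchange factor, also peaked in ependymal-like cells, at 316 CPM in dHet and 279 CPM in control cells, and was lowest in astrocyte-like cells, at 29.4 and 37.1 CPM. The profile r between Hsp90aa1 and Hsph1 was 0.88. The points of these correlations share their library, so the values are descriptions only.

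The levels of the next 3 genes are ordered over named classes with at least 20 cells in each library, which leaves out the pars tuberalis-like cells (15 dHet and 59 control cells). Hspa5, the Hsp70 of the endoplasmic reticulum, was at 924 CPM (904 to 944) in dHet and 828 CPM (804 to 853) in control Agrp/Npy-like neurons. Ghrh/Th/Gal-like neurons had 865 and 838 CPM. These were the highest levels of those classes in either library, and the control intervals of these neuron types overlapped. Pars tuberalis-like cells had 871 and 879 CPM, and one of the tanycyte-like clusters, with Scn7a as its first gene, had 803 and 962 CPM. In the dHet library Hspe1 was lowest in ependymal-like (259 CPM), astrocyte-like (260.3 CPM) and tanycyte-like cells (279 CPM), whose intervals overlapped, and highest in Agrp/Npy-like cells (570 CPM). In the control library the lowest was 230 CPM in astrocyte-like and the highest 677 CPM in oligodendrocyte-like cells. In the Hspe1 3′ end, 34.25% of 101-base words also occur in 1 other annotated gene. For Dnajb1, the J-domain partner of Hsp70, the extremes were 20.6 CPM in astrocyte-like and 59.7 CPM in cycling-like dHet cells. In control cells they were 14.0 CPM in the astrocyte-like and 86.4 CPM in the Agrp/Npy-like class. Pars tuberalis-like cells, left out of that order, had Dnajb1 at 99.0 CPM (59.6 to 155) in dHet and 201 CPM (172 to 234) in control cells.

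Hspa1a, the stress-inducible Hsp70, had its highest level in tanycyte-like cells in both libraries, among classes with at least 20 cells in each: 83.9 CPM (72.0 to 97.3) from 176 UMIs in dHet cells and 525 CPM (498 to 553) from 1461 UMIs in control cells. Control oligodendrocyte-like cells and their precursors followed with overlapping intervals, at 205 CPM (168 to 247) and 181 CPM (152 to 213), against 24.9 and 23.1 CPM in the same dHet classes. Astrocyte-like cells had the lowest level, 1.06 CPM (3 UMIs) in dHet and 5.18 CPM (13 UMIs) in control cells. Its near copy Hspa1b had the same order of extremes in the control library, with 107 CPM in dHet and 502 CPM in control tanycyte-like cells. The profile r of Hspa1a and Hspa1b was 0.95. Of the 101-base words of the Hspa1a transcript 46.9% occur in Hspa1b, but 0% of those in its last 500 bases do. Counting was done on 3′ ends, but where the reads of these genes lie was not examined.

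Hspb1 was the most restricted member. It was at 67.7 CPM in dHet and 155 CPM in control tanycyte-like cells and at 39.3 and 33.5 CPM in ependymal-like cells. It was at 1.70 and 1.98 CPM in neuron-like cells and at 0 UMIs in both libraries in oligodendrocyte-like cells, their precursors and Ghrh/Th/Gal-like neurons. A count of 0 still allows up to 5.41 CPM in dHet and 6.93 CPM in control oligodendrocyte-like cells. In cycling-like cells 26 UMIs in the dHet library came from 2 of 32 cells, against 0 UMIs in 35 control cells. Pars tuberalis-like cells, endocrine cells around the pituitary stalk, were few in the dHet library (15 cells, against 59 control cells), with Hspb1 at 297 and 483 CPM and Hspa1a at 308 and 646 CPM. All dHet UMIs came from 4 of the 15 cells for Hspb1 and from 5 for Hspa1a. The highest Hspb1 level of any cluster was in an unnamed one led by Fmo2, Wfdc2 and Krt14, with 1346 CPM over 14 dHet cells and 996 CPM over 3 control cells.

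**Figure D1:**
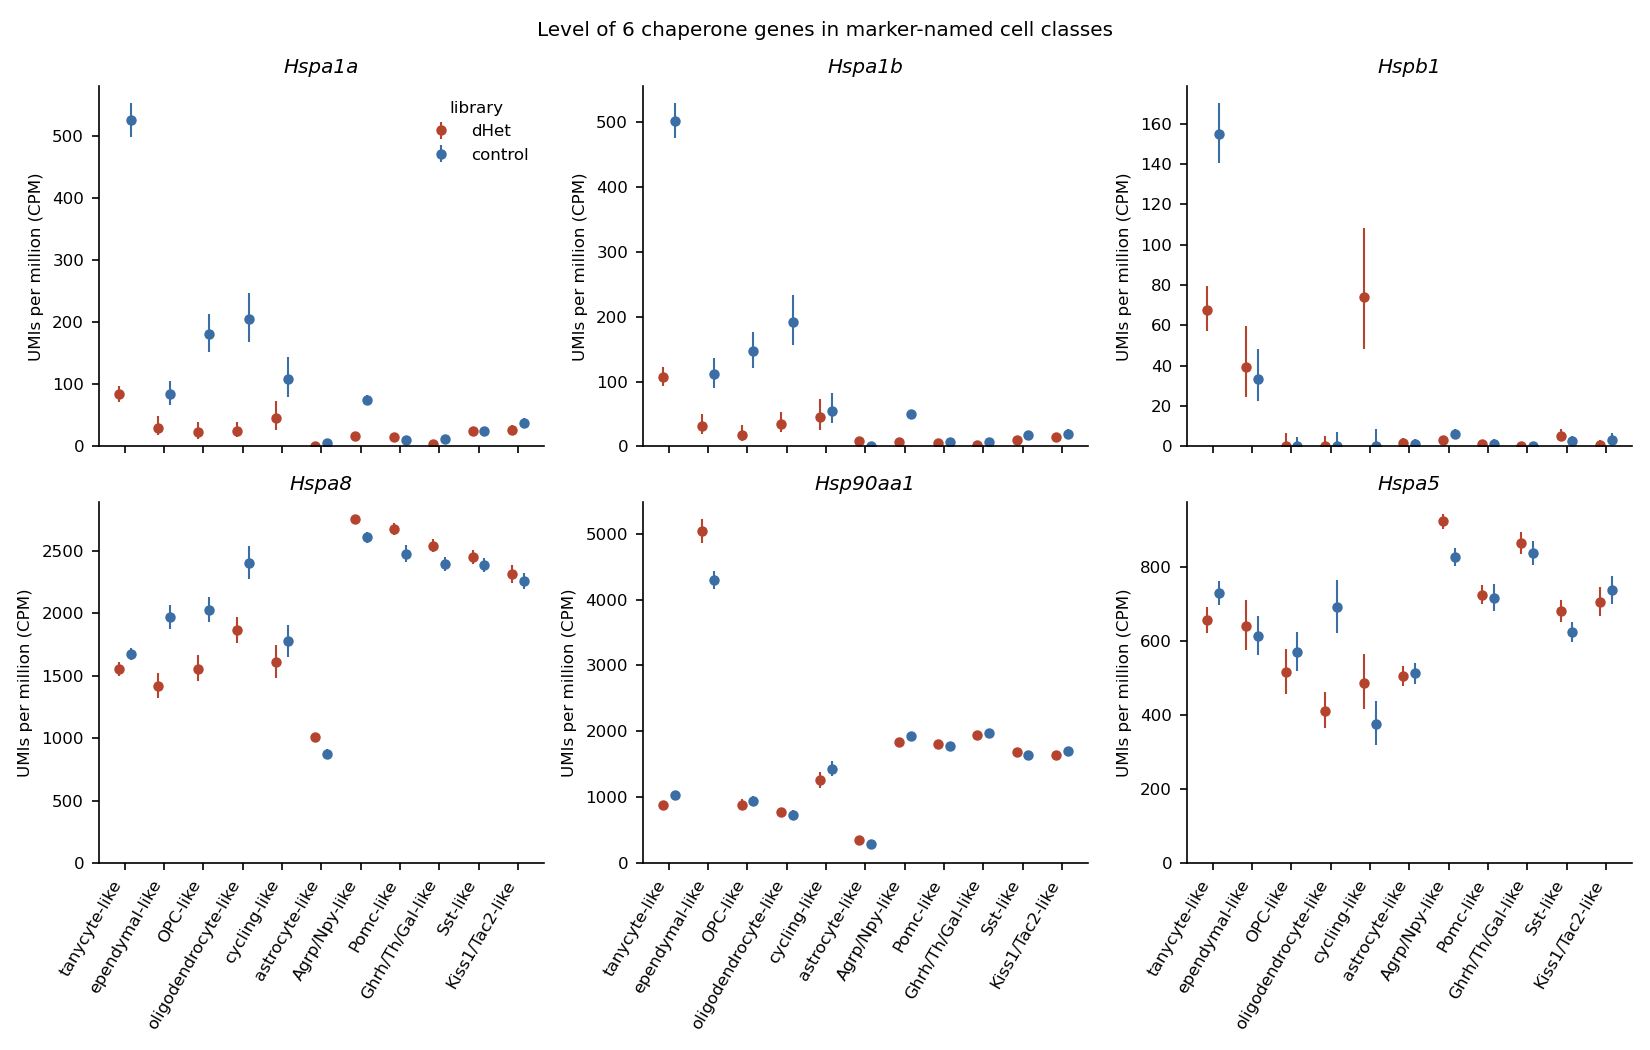
UMIs per 1000000 UMIs (CPM) for 6 chaperone genes in marker-named classes with at least 20 cells in each library (x axis). Neurons are drawn by named type, dHet is left of control, and bars are exact 95% Poisson intervals. Pars tuberalis-like cells are not drawn and had higher levels of Hspa1a, Hspa1b and Hspb1 than tanycyte-like cells in both libraries. Their dHet levels rest on few of 15 cells, 1 of which held 73.5% of the UMIs of Hspa1a and Hspa1b together. Among the classes drawn, Hspa1a, Hspa1b and Hspb1 stand out in tanycyte-like cells, most in the control library. Hsp90aa1 stands out in ependymal-like cells (5038 and 4299 CPM), and Hspa8 and Hspa5 vary less.

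The UMIs of the low-abundance genes were also held by few cells. In tanycyte-like cells the 5 cells with most Hspa1a held 44.9% of its UMIs in the dHet library (235 cells) and 18.5% in the control library (278 cells). The corresponding shares were 65.5% and 31.3% for Hspb1 and 7.58% and 5.42% for Hspa8. The 10% of cells with most UMIs held 81.8% of Hspa1a UMIs in dHet and 65.0% in control cells, against 26.0% and 23.8% of Hspa8 UMIs. Such shares rise by counting alone where a gene has few UMIs per cell. Hspa1a and Hspb1 had far fewer than Hspa8, and fewer in dHet than in control tanycyte-like cells. The part of counting in these gaps was not tested. The median tanycyte-like cell had no Hspa1a, Hspa1b or Hspb1 UMI in either library.

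With every cell thinned to 4000 UMIs, Hspa1a was detected in 33 of 212 dHet tanycyte-like cells, 15.6% (exact binomial interval 11% to 21.2%), and in 91 of 254 control cells, 35.8% (29.9% to 42.1%). Without thinning the shares were 23.4% and 39.6%. In astrocyte-like cells, the class with the lowest level, the thinned shares were 0.288% (1 of 347) in dHet and 2.27% (7 of 308) in control cells. Median depths were 8043 and 9702 UMIs in tanycyte-like and 6460 and 5653 UMIs in astrocyte-like cells. The tanycyte-like shares were far above the astrocyte-like ones in both libraries. Free RNA was not estimated, and its part in these shares was not tested.

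**Figure D2:**
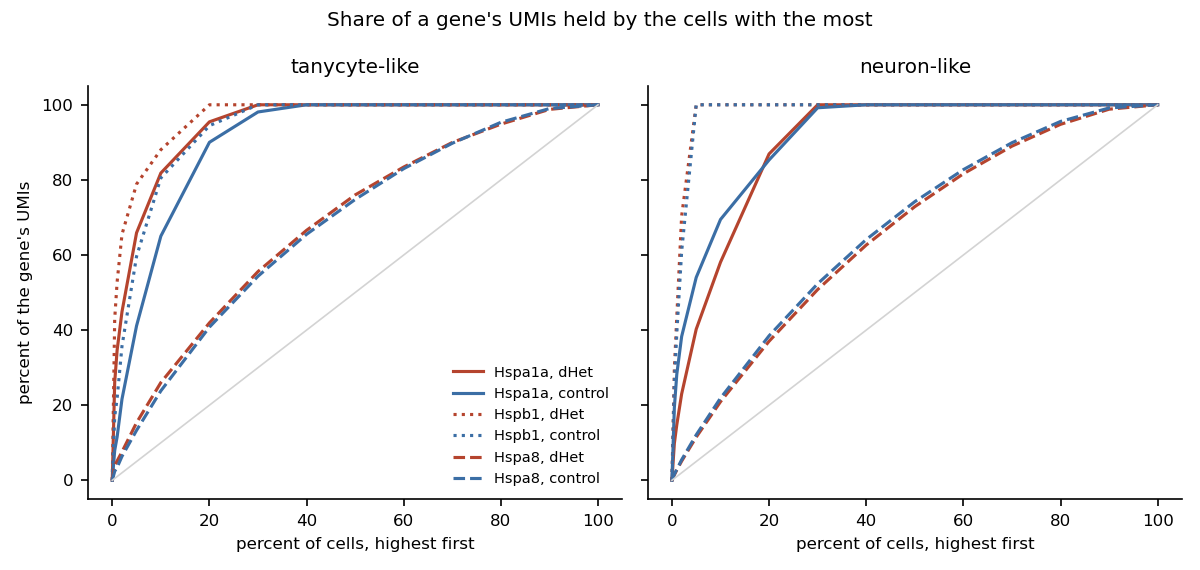
Share of a gene's UMIs (y axis, percent) held by the given share of cells (x axis, percent, cells with most UMIs first) for Hspa1a, Hspb1 and Hspa8 in tanycyte-like and neuron-like cells. Of the 3 genes, Hspa8 lies closest to the grey diagonal of even spread, while the 10% of tanycyte-like cells with most UMIs hold 81.8% of Hspa1a in dHet and 65.0% in control cells. A gene with few UMIs per cell, such as Hspb1 in neuron-like cells, lies far from the diagonal by counting alone.

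Cells with 10 or more UMIs of Hspa1a and Hspa1b together numbered 32 of 3880 in the dHet library, 0.825% (0.565% to 1.16%), and 177 of 3418 in the control library, 5.18% (4.46% to 5.98%). They held 28.7% of the UMIs of the pair in the dHet library and 68.9% in the control library. Cells were not thinned for this cut, so it depends on depth. Median depth was 8043 UMIs in dHet and 9702 UMIs in control tanycyte-like cells, and 21209 and 22802 UMIs in neuron-like cells. By class, 11 of 235 dHet and 72 of 278 control tanycyte-like cells reached this level. So did 1 of 39 and 9 of 28 oligodendrocyte-like cells, 2 of 15 and 27 of 59 pars tuberalis-like cells, and 5 of 2914 and 44 of 2257 neuron-like cells. No astrocyte-like cell did, of 421 and 413. In each of these named classes other than the astrocyte-like one, the share was lower in the dHet library. The unnamed cells went the other way, with 12 of 98 dHet cells (12.2%, interval 6.49% to 20.4%) and 9 of 169 control cells (5.33%, 2.46% to 9.87%), and they held more of the 32 dHet cells than any named class.

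**Figure D3:**
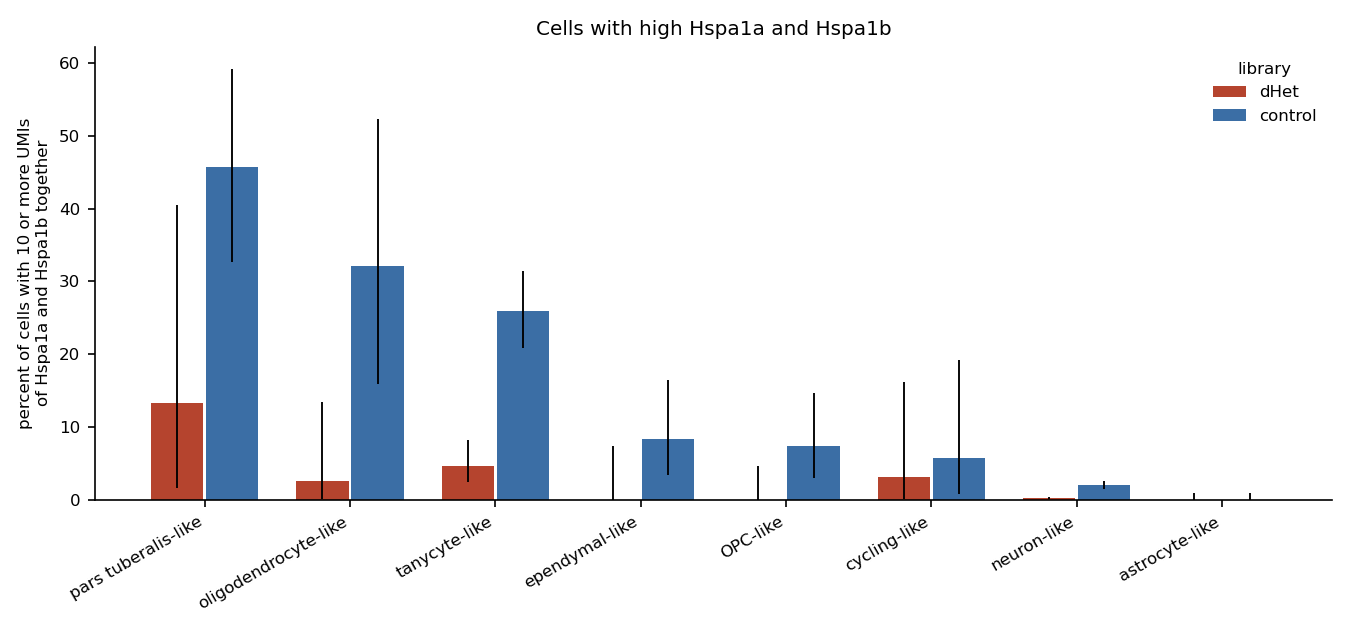
Percent of cells of each marker-named class (y axis) with 10 or more UMIs of Hspa1a and Hspa1b together, dHet left of control, with exact 95% binomial intervals. Unnamed cells are not drawn, and cells were not thinned to a common depth. Among the classes drawn, the control bars are the higher ones in all but the astrocyte-like one, where both are 0, and the intervals are widest where cells are few.

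The comparison sets cells with reduced gene dose of Irx3 and Irx5 against control cells of the same Cre line. With 1 library per genotype a difference between libraries cannot be told apart from a difference between pools, dissociations or sorts. A gene was counted as lower or higher where its ratio of (CPM + 5), dHet over control, was at least 1.5-fold from 1. Over all kept cells 3 of the 10 genes, Hspa1a, Hspa1b and Hspb1, were lower by this rule, against 0.449% of 14485 genes, and none was higher (0.145% of genes). Hspa1a was at 20.5 CPM in the dHet library (1460 UMIs) and 65.8 CPM in the control library (4116 UMIs), a ratio of 0.311 (exact interval 0.293 to 0.330). Hspa1b was at 15.4 and 54.5 CPM, a ratio of 0.283 (0.264 to 0.303), and Hspb1 at 8.54 and 18.2 CPM, a ratio of 0.468 (0.424 to 0.517). With clusters weighted equally the log2 ratio was -0.73 for Hspa1a, against -1.48 over summed UMIs, and -0.65 for Hspa1b, against -1.54, and both still passed. For Hspb1 it turned, to 0.09, against -0.78. The other 7 genes had ratios between 0.807 (Dnajb1) and 1.08 (Hspa5).

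In tanycyte-like cells 4 of the 10 genes were at least 1.5-fold lower, against 1.51% of 6956 genes, and none was higher (1.38%). All 10 were below their control level, with a median log2 ratio of -0.23, against -0.02 over all genes, of which 53.5% were lower to any degree. Hspa1a was lower at a ratio of 0.160 (0.136 to 0.187) and Hspa1b at 0.214 (0.185 to 0.246). Without the 5 cells of each library with most UMIs of the gene, their log2 ratios were -3.07 and -2.33, against -2.58 and -2.17 with them. For Hspb1 the ratio was 0.437 (0.359 to 0.530), a log2 ratio of -1.14. It was -1.97 without those 5 cells of each library and -0.74 with clusters weighted equally. Dnajb1, at 34.3 CPM in dHet and 55.0 CPM in control cells, had a ratio of 0.624 (0.465 to 0.832). Its log2 ratio of -0.61 passed the threshold under 7 of 14 other settings. Hsph1 did not differ beyond counting error, with 86.3 and 87.3 CPM and a ratio interval of 0.811 to 1.20.

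Both tanycyte-like clusters showed the lower levels of the inducible genes. In the cluster led by Scn7a and Cldn10, Hspa1a was at 235 CPM in dHet and 1092 CPM in control cells, a ratio of 0.215 (0.179 to 0.258). In the cluster led by Crym and S100a6 it was at 26.9 and 173 CPM, a ratio of 0.156 (0.109 to 0.216). Hspb1 was at 207 and 332 CPM in the first and at 15.1 and 44.8 CPM in the second. The Scn7a cluster thus had the higher level in either library, and it made up 56 of 235 dHet and 86 of 278 control tanycyte-like cells.

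Immediate early genes, which stress and tissue dissociation are known to induce, moved with these genes. In tanycyte-like cells 20 of the 22 listed genes with at least 100 UMIs were lower, against 53.5% of 6956 genes. By 1.5-fold 12 of the 22 were lower, against 1.51% of genes. The median log2 ratio of the 22 was -0.66, and the list of 30 genes summed to 4156 CPM in dHet and 7373 CPM in control cells. Cyr61 was at 128 and 492 CPM, Fos at 628 and 1526 CPM and Jun at 472 and 1115 CPM. In this list only Arc was higher by 1.5-fold, against 1.38% of all genes. The share of mitochondrial UMIs also differed, with a median of 6.58% in dHet and 5.48% in control tanycyte-like cells. The part of these differences in the chaperone levels was not tested.

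In neuron-like cells 2 of the 10 genes, Hspa1a and Hspa1b, were at least 1.5-fold lower, against 0.194% of 13426 genes, and none was higher (0.127%). Hspa1a was at 15.9 CPM in dHet and 30.7 CPM in control cells, a ratio of 0.517 (0.478 to 0.560), and Hspa1b at 8.39 and 19.9 CPM, a ratio of 0.421 (0.378 to 0.467). Without the Sst-like and Foxb1 clusters, which each have a marker of another class among their leading genes, both genes were still lower by at least 1.5-fold. With 20 CPM added in place of 5, the log2 ratios were -0.50 and -0.49 and neither passed. The remaining 8 genes had ratios between 0.840 (Dnajb1) and 1.11 (Hspa5), and the Hspa5 interval of 1.09 to 1.12 lay above 1. In the neuron-like class 21 of 27 immediate early genes were lower (58.9% of all genes were), 9 of them by 1.5-fold, and the list summed to 1301 CPM in dHet and 1692 CPM in control cells. The part of that difference in the chaperone levels was not tested.

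The neuron types differed in how far their Hspa1a levels stood apart. In Agrp/Npy-like neurons 3 genes were lower, Hspa1a, Hspa1b and Dnajb1, against 0.74% of 9461 genes, and none was higher (0.814%). Hspa1a was at 16.4 CPM in dHet and 75.2 CPM in control cells, a ratio of 0.218 (0.180 to 0.263). Dnajb1 was at 46.0 and 86.4 CPM, a ratio of 0.533 (0.466 to 0.609). In the same cells 12 of 20 immediate early genes were lower by 1.5-fold, with a median log2 ratio of -1.02, and the list summed to 1350 and 2274 CPM. In Ghrh/Th/Gal-like neurons, Hspa1a (16 and 35 UMIs) and Hspa1b (8 and 22 UMIs) were lower, against 0.636% of 7857 genes. Both are under the 100 UMIs of the background genes, which 7 of the 10 reached here, and Hspa1a passed under 9 of 14 other settings. No gene was higher in this type (0.369%).

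No chaperone gene passed in Sst-like neurons, where 0.671% of genes were lower and 0.205% higher. The Sst-like name rests on 1 cluster, led by Sst, Itm2a and Cbln4, which also has 1 marker of another class among its 10 leading genes. There Hspa1a was at 24.6 CPM in dHet and 24.4 CPM in control cells, with a ratio interval of 0.725 to 1.41. None passed in Kiss1/Tac2-like neurons (1.37% lower and 0.411% higher), with Hspa1a at 26.2 and 37.2 CPM. Hspa1a was at 14.5 CPM in 157 dHet and 9.84 CPM in 71 control Pomc-like cells, a ratio interval of 0.880 to 2.56. Fos was lower in the dHet library in Sst-like cells too, at 20.4 and 65.0 CPM, and the immediate early list summed to 1322 and 1374 CPM there. Differences between neuron types were not tested.

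In astrocyte-like cells the pair split. Hspa1a was lower, with 3 UMIs in dHet and 13 in control cells, against 1.75% of 7301 genes, and Hspa1b was higher, with 22 and 3 UMIs, against 1.26% of genes. Both are among the 4 chaperone genes under the 100 UMIs that the background genes had to reach in this class, which 6 of the 10 reached. The 5 dHet cells with most Hspa1b held 63.6% of the 22 UMIs, and neither call remained with 20 CPM added. Hspa8 was at 1005 and 876 CPM, a ratio of 1.15 (1.09 to 1.21), and Hsp90aa1 at 343 and 287 CPM, a ratio of 1.20 (1.08 to 1.32), both short of 1.5-fold. None of the 14 immediate early genes with at least 100 UMIs passed in either direction, and the list summed to 967 and 1011 CPM.

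**Figure D4:**
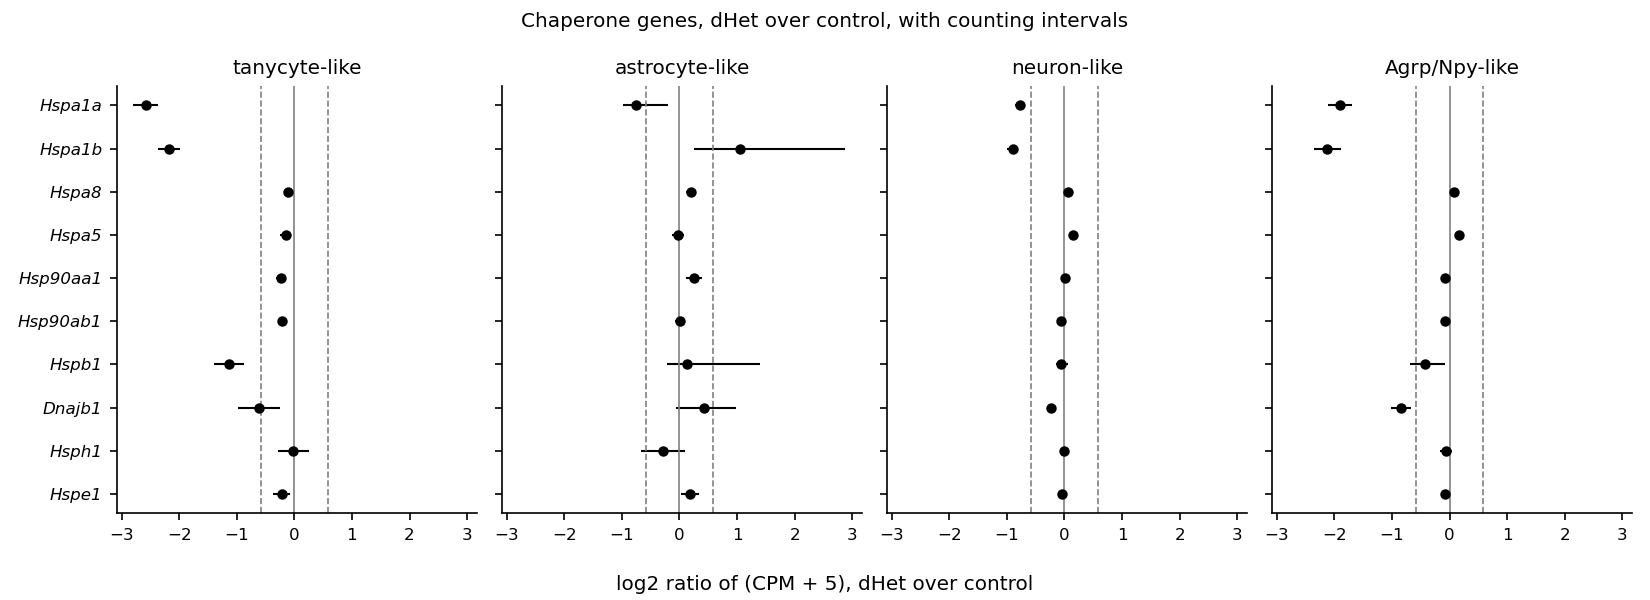
Log2 ratio of (CPM + 5), dHet over control, for each chaperone gene (rows) in 4 classes, with the exact 95% counting interval as a bar and dashed lines at 1.5-fold. Hspa1a and Hspa1b are far left in tanycyte-like and Agrp/Npy-like cells, while Hspa8, Hsp90ab1 and Hspe1 lie close to 0 in all 4 panels.

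Over the 31 clusters with at least 20 cells in each library, Hspa1a was lower in the dHet library in 26. Hspa1b was lower in 25 and Dnajb1 in 26. Hsp90ab1 and Hspe1 were each lower in 25 and higher in 6, and Hsph1 was lower in 22 and higher in 9. At 1.5-fold, Hspa1a was lower in 17 and higher in 1, and Hspa1b in 18 and 4. The same counts were 4 and 2 for Dnajb1, 4 and 0 for Hsph1, 1 and 0 for Hspe1 and 0 and 0 for Hsp90ab1. The share of all genes past 1.5-fold was not taken for single clusters, so these counts have no background beside them. Over all kept cells 61.9% of all genes were lower to any degree. Hspa5 was higher in 22 clusters. Hspb1 was lower in 12 and higher in 14. Over the 21 neuron-like clusters among them, the Hspa1a ratio ran from 0.135, in neurons led by Vip, Avp and Rgs16, to 1.65, in neurons led by Foxb1, Nxph4 and Nrn1. The Foxb1 cluster has 1 marker of another class among its 10 leading genes. Of the 31 clusters, the highest ratios of Hspa1b and Hspb1 were in a shallow unnamed cluster led by Sparc, Ifitm3 and Cyba, with a median of 1355 UMIs per dHet and 1428 UMIs per control cell. There Hspa1b was at 262 CPM in dHet and 30.7 CPM in control cells and Hspb1 at 155 and 7.67 CPM, but its 39 Hspa1b UMIs in the dHet library came from 3 of 57 cells. Hspa8, Hsp90aa1 and Hsp90ab1 stayed within 1.5-fold in every cluster, with the exception of Hspa8 in the Sparc cluster, at 1473 and 2419 CPM.

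**Figure D5:**
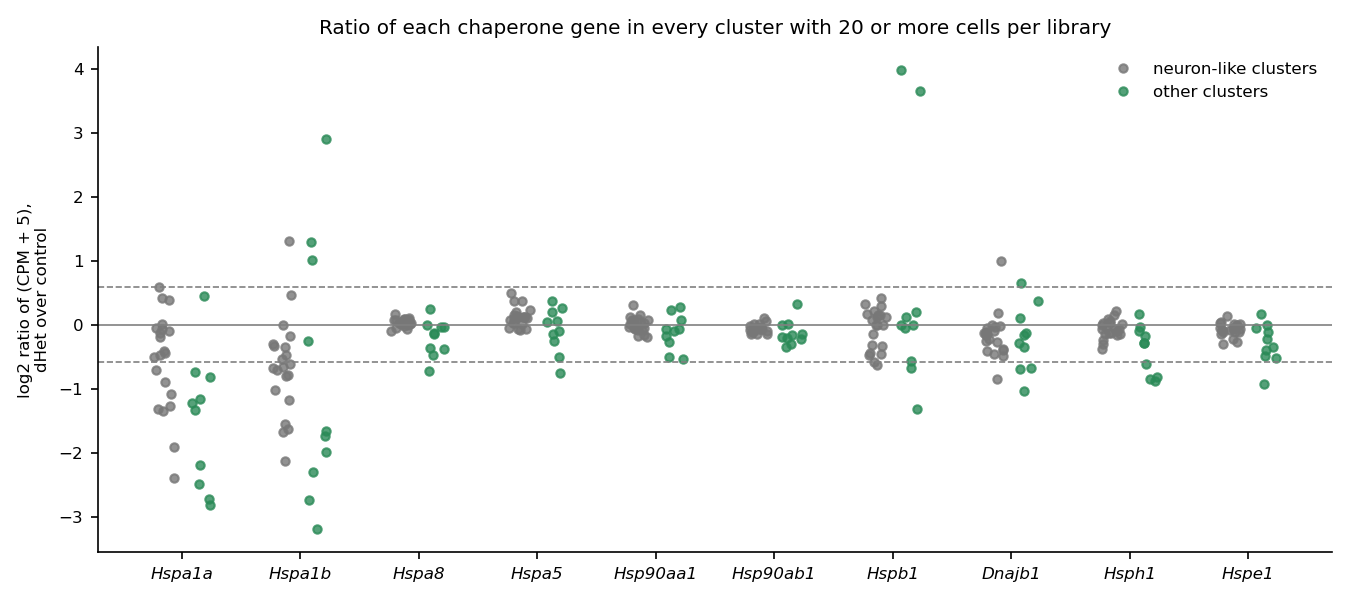
Log2 ratio of (CPM + 5), dHet over control (y axis), of each chaperone gene in every cluster with 20 or more cells in each library, neuron-like clusters in grey and others in green, dashed lines at 1.5-fold. Hspa1a lies below 0 in 26 of 31 clusters, and the points of Hspa8, Hsp90aa1 and Hsp90ab1 stay near 0.

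In the wider chaperone network, taken from lists of genes, no gene with at least 100 UMIs passed 1.5-fold over all kept cells. Of all genes 0.449% were lower and 0.145% higher by that rule, so few or none would pass in lists this short at that share. Over all kept cells 61.9% of 14485 genes were lower in the dHet library to any degree. Of 22 cochaperones of Hsp70 and Hsp90, 19 were lower and 3 higher over all kept cells, none of them by 1.5-fold, with a median log2 ratio of -0.06, against -0.03 over all genes. Chordc1, a cochaperone of Hsp90, had the largest difference, at 80.7 CPM in dHet and 113 CPM in control cells. It passed in tanycyte-like cells at 61.5 and 103 CPM and in Kiss1/Tac2-like neurons at 65.6 and 109 CPM. Of 21 chaperones and unfolded protein response genes of the endoplasmic reticulum, the compartment of Hspa5, 11 were lower and 10 higher and none passed. Sdf2l1, a cofactor of Hspa5, was at 21.2 and 25.9 CPM, and Atf4, a stress-induced transcription factor, at 78.3 and 99.7 CPM. In tanycyte-like cells Atf4 passed, at 59.1 and 91.3 CPM.

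None of 8 mitochondrial chaperones and proteases, the partners of Hspe1, passed over all kept cells, and Hspa9, the mitochondrial Hsp70, was at 155 CPM in dHet and 140 CPM in control cells. The same held for 13 chaperonin and prefoldin subunits, 7 of them higher, with Tcp1 at 278 and 242 CPM. It held for 6 other Hsp70 and Hsp110 genes, with Hspa2 at 25.7 and 35.4 CPM and Hspa4 at 203 and 182 CPM. None of the 4 genes of the heat shock factor list passed, with Hsf1, which encodes the main activator of the heat shock response, at 20.1 and 21.6 CPM and Hsf2 at 42.9 and 48.8 CPM. Of 5 other small heat shock genes with enough UMIs none passed. Cryab, the alpha B crystallin, was lower in tanycyte-like cells, at 18.1 and 35.6 CPM, and higher in astrocyte-like cells, at 69.5 and 44.3 CPM.

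Within single tanycyte-like cells thinned to 4000 UMIs, Pearson's r between Hspa1a and Hspa1b was 0.43 over 212 dHet cells and 0.67 over 254 control cells. Hspa1b and Hspb1 had an r of 0.31 in dHet and 0.42 in control cells. In control Agrp/Npy-like cells the r of Hspa1a and Dnajb1 was 0.42 over 180 cells. These cells share their library and dissociation, and the counts are sparse, so the values describe these libraries only.

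Among 13337 genes, those whose profile over the 22 class points was most like that of Hspa1a were Hspa1b, Tpt1 and Cpsf3, with r between 0.79 and 0.95. For Hspa8 they were Arf1, the J-domain partner Dnaja1 and Eloc, with r between 0.958 and 0.963. For Hspa5 they were Spcs2 and Derl1, which act in secretory protein processing and degradation at the endoplasmic reticulum, and Crebl2, with r between 0.88 and 0.90. For Hspb1 they were Col4a4, Shroom3 and F11r, with r between 0.92 and 0.94.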

How the data were processed

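Single-cell RNA of tdTomato-positive cells was sequenced from 2 libraries. Reads had been processed with Cell Ranger on build mm10, per the submitters' processing notes, in version 3.0.2 (per the file headers). The deposited table holds raw UMI counts per gene and cell of both libraries, and the authors' filtered matrices hold the same counts for more barcodes: 0 of 74180 chaperone entries differed between them. Which gene annotation was used in counting is not given in those sources.

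Cells with at least 500 genes and at most 20% mitochondrial UMIs were kept. Scrublet in scanpy 1.11.5, at an expected rate of 4%, removed 19 dHet (0.487%) and 23 control cells (0.668%). Keeping doublets, or removing the 4% of cells with the highest scores, were alternatives. Clustering used 2000 variable genes without the chaperone genes, the listed genes, Irx3 and Irx5, then 30 components, 15 neighbours and Leiden resolution 1 (leidenalg 0.10.2). To be named, a cluster had to hold 3 or more markers of that class, each in 25% of cells, and a neuron type also needed 2 of its markers among the 10 leading genes. Names are rebuilt from markers, and clusters without a clear name, 98 dHet and 169 control cells, stayed unnamed. Sums of UMIs per class were divided by all UMIs of that class. Intervals are 95%: Poisson for levels, conditional binomial for ratios, Clopper-Pearson for shares (scipy 1.17.1). PCR copies were collapsed by UMI. The background counts genes with at least 100 UMIs in the class. Classes with at least 100 cells per library were compared, and levels are given from 20 cells on. The chaperone genes, gene lists and markers were chosen with earlier results of these data known. List genes named are up to 3 per list with the largest log2 ratio, and like genes are the 3 of highest correlation; any other gene was picked after its values were known. The procedure was tested on simulated data. Promoters come from RefSeq's GRCm38.p6 table, transcripts and exons from GENCODE on GRCm38.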

Additional observations from a re-analysis of the deposited data

Results flagged for a closer look

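Hspa1b in astrocyte-like cells was higher in the dHet library, with a log2 ratio of 1.05 from 22 dHet and 3 control UMIs, while it was lower in neuron-like, tanycyte-like, Agrp/Npy-like and Ghrh/Th/Gal-like cells. It stands out because the direction is opposite in 1 class. The difference between classes was not tested, and the log2 ratio was 0.39 with 20 CPM added.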

How the results depend on the processing

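No paired analysis was possible because each genotype has 1 library. Under 15 other settings, 984 of 1130 log2 ratios moved by less than their counting interval, 145 moved further and 1 reversed: Hspb1 over all kept cells, at 0.093 with clusters weighted equally, against -0.78. Of 57 counts of genes passing 1.5-fold, 54 stayed within 1.5 times. With 20 CPM added the count was 0 in neuron-like and 0 in astrocyte-like cells, and with cells thinned to 4000 UMIs it was 2 in astrocyte-like cells, against 1. In each the cause was not tested. Leaving out the 2 neuron-like clusters (366 cells) with a marker of another class among their leading genes, the Sst-like and the Foxb1 cluster, a choice made after seeing the data, left the neuron-like count at 2. Depth limits Hspb1 outside tanycyte-, ependymal- and pars tuberalis-like cells, and Hspa1a and Hspa1b in astrocyte-like and Ghrh/Th/Gal-like cells.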
